A study of Mus musculus with 4 samples.

Results

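The genes described here are 10 genes of milk proteins and of the milk fat globule: Csn1s1, Csn1s2a, Csn2, Csn3, Wap, Lalba, Ltf, Xdh, Btn1a1 and Mfge8. Every probe set whose only gene symbol in the array's annotation was one of these was taken, which gave 18 of the 45101 probe sets on the array, for 10 of 18193 genes named by a probe set of their own. Expression was measured in 4 mouse mammary tumours, each on 1 Affymetrix array. The tumours grew in nude mice, which lack mature T cells, after transplantation of Eph4 cells, an established mouse mammary epithelial line. In 2 tumours (labelled Eph_EN_DN, called EN-TAM67 here) the Eph4 cells had been transduced with the fusion oncogene ETV6-NTRK3 and also expressed TAM67, a dominant negative c-Jun. In the other 2 (Eph_EN, called EN here) they carried ETV6-NTRK3 alone, so the fusion was common to all 4 tumours. The promoters driving the constructs, the number of clones, and the age, sex and hormonal state of the mice are not given here. The question behind the comparison is whether AP-1, the transcription factor that c-Jun belongs to, carries the effect of the fusion in mammary tumours.

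Milk proteins are made by the luminal secretory cells of the mammary gland. Prolactin, acting through its receptor, the kinase JAK2 and the transcription factor STAT5, switches on casein and whey protein genes together with glucocorticoids and contact with the basement membrane. Caseins form the micelles that carry calcium and phosphate, the whey proteins stay in solution, and butyrophilin, xanthine oxidoreductase and Mfge8 coat the fat droplets that leave the cell. In cultured mammary epithelial lines, casein production is the usual readout of secretory differentiation.

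The promoters of 2 casein genes are shown because they carry the STAT5 motif within the stretch before the start of transcription, while their probe sets lay low in all 4 tumours. Each sequence runs 200 bases up to the start, 5′ to 3′ on the gene's strand, from RefSeq on build GRCm38.p6. Capitals mark the STAT5 motif TTCNNNGAA and a loose form of the AP-1 motif, TGANTCA, where N is any base. Both read the same on either strand and do not overlap here. The Csn1s1 stretch is chr5:87666008-87666207 on the plus strand, and the Csn2 stretch is chr5:87699426-87699625 on the minus strand.
Csn1s1: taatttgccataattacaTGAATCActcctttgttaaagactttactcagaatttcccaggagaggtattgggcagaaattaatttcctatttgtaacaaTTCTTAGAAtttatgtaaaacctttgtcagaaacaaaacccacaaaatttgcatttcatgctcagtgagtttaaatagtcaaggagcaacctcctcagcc
Csn2: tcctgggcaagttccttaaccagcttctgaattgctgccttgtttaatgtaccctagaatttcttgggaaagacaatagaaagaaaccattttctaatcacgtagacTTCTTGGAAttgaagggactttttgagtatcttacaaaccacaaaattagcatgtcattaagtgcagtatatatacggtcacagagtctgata
In these 2 genes the STAT5 motif starts at position -100 of Csn1s1 and -93 of Csn2, and the AP-1 motif at position -182 of Csn1s1, counted back from the start of transcription. Promoters of 7 of the 10 genes were matched (300 bases, 250 before the start and 50 after). The STAT5 motif stood in 3 of these (Csn1s1, Csn2 and Csn1s2a, in the last after the start) and in 8.30% of all 32851 promoters of this length. The loose AP-1 motif stood in 1, that of Csn1s1 (TGAATCA, with A in place of N), and in 7.81% of all promoters. A match of letters is a description and not a binding site.

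No milk protein probe set passed the test between EN-TAM67 and EN tumours. Of the 18, 9 were left after the dimmest 40% of probe sets were set aside, and 0 of these 9 reached an adjusted p under 0.05 in limma (1 had an unadjusted p under 0.05). Over all 27022 probe sets tested, 0.226% passed (0.0555% with EN-TAM67 higher and 0.17% lower) and 9.48% had an unadjusted p under 0.05. Differences are EN-TAM67 minus EN of log2(intensity + 16), with 2 tumours in each group, and the added 16 makes differences of dim probe sets smaller. Over all 18 probe sets the median difference was 0.0044, against 0.059 over all probe sets but controls, with 9 positive and 9 negative. An exact permutation test of 2 tumours against 2 cannot give a two-sided p below 0.333, so no such p is given for single probe sets. Array medians were 38.1 and 40.8 intensity units in the EN-TAM67 tumours, against 35.6 and 35.9 in the EN tumours. These medians serve below as a landmark for low signal, since no detection call was used. The ratio of 3' to 5' signal of Gapdh, a sign of RNA integrity, was 1.17 and 1.11 in EN-TAM67 tumours, against 0.938 and 1.04 in EN tumours. That of beta-actin was 1.31 and 1.34 in EN-TAM67 tumours, against 1.11 and 1.19 in EN tumours. Both ratios were higher in each EN-TAM67 tumour than in each EN tumour, and their part in the differences was not tested.

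**Figure D1:**
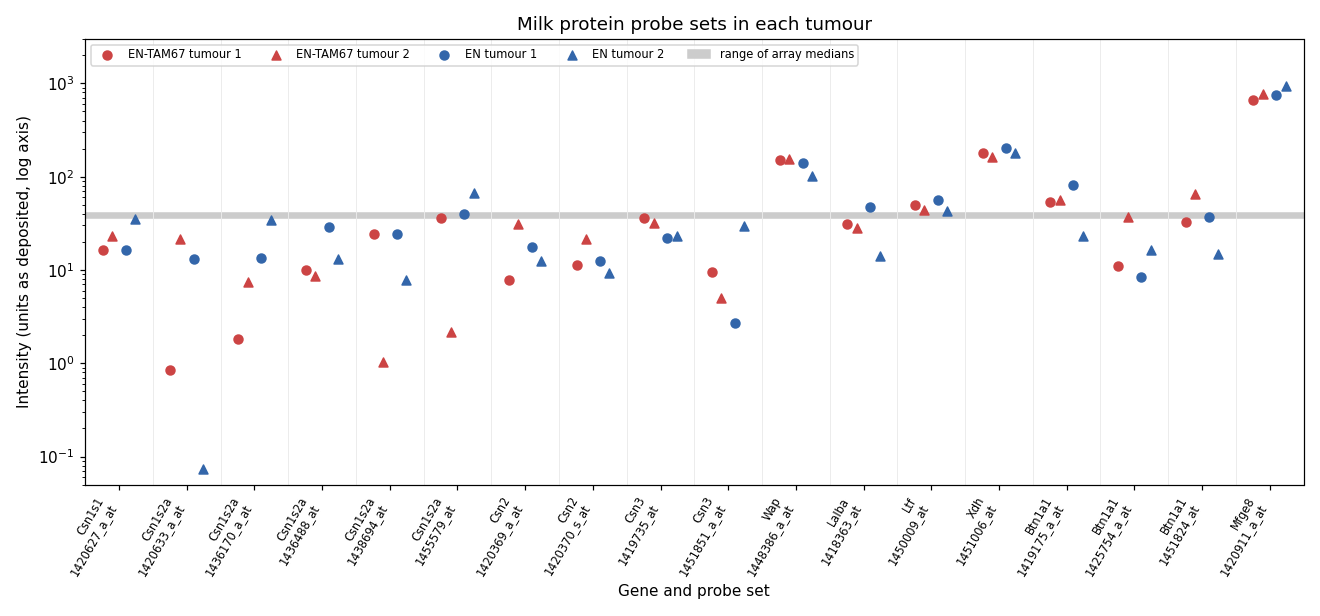
Intensity (as deposited, log axis) of the 18 milk protein probe sets, with EN-TAM67 tumours in red and EN tumours in blue, 1 point for each tumour. The grey band spans the 4 array medians (35.6 to 40.8 units). Casein values lie in or below the band with few exceptions, while Wap, Ltf, Xdh and Mfge8 lie above it in every tumour. Probe sets differ in how brightly they bind, so heights of different probe sets do not rank the genes.

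Among the caseins, signal was low in both groups, and probe sets of Csn1s2a and of Csn3 disagreed in sign within the gene. The 10 probe sets of the 4 casein genes gave 40 values, of which 38 lay under the median of their own array. The 40 values ran from 0.0739 to 66.4 units.

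Csn2 encodes beta-casein, the classic marker of prolactin-driven differentiation in culture. Its probe set 1420369_a_at read 7.76 and 31.4 units in EN-TAM67 tumours, against 17.8 and 12.6 units in EN tumours. The EN-TAM67 tumours held both the lowest and the highest value, so the groups overlapped. The other, 1420370_s_at, whose suffix marks probes shared by several transcripts, read 11.4 and 21.3 units in EN-TAM67 tumours, against 12.4 and 9.18 units in EN tumours. Here too the groups overlapped, and the differences were 0.11 and 0.26, neither tested because both probe sets were too dim.

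Csn1s1 encodes an alpha-S1 type casein. Its single probe set read 16.2 and 23.4 units in EN-TAM67 tumours, against 16.3 and 35.04 units in EN tumours. The values of tumour 1 of each group were nearly equal, the groups overlapped, and the probe set was too dim to be tested (difference -0.19).

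Csn3 encodes kappa-casein, which keeps the micelles from clumping. Its brighter probe set 1419735_at read 36.1 and 31.6 units in EN-TAM67 tumours, against 22.3 and 23.4 units in EN tumours. Both EN-TAM67 values were the higher ones, yet all 4 lay under their array medians, and the difference of 0.36 ± 0.42 (SE) did not pass (limma adjusted p = 0.835). This probe set passed the filter through the EN-TAM67 tumours (mean 33.8 units in EN-TAM67 and 22.8 units in EN tumours). The dimmer 1451851_a_at read 9.53 and 4.96 units in EN-TAM67 tumours, against 2.68 and 29.9 units in EN tumours. In that probe set the EN tumours held both extremes and the difference was -0.34, opposite in sign to the brighter one.

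Csn1s2a, an alpha-S2 type casein gene, had 5 probe sets and the lowest difference of any milk protein probe set. Probe set 1455579_at read 36.3 and 2.18 units in EN-TAM67 tumours, against 40.02 and 66.4 units in EN tumours. The groups did not overlap, and EN-TAM67 tumour 2 stood far below the other 3. The difference was -1.14 ± 0.50 (SE, 95% confidence interval -2.20 to -0.079), and it did not pass (limma adjusted p = 0.4995). It was the 1 probe set of the 9 whose unadjusted p was under 0.05, and it passed the filter through the EN tumours (mean 19.2 units in EN-TAM67 and 53.2 units in EN tumours). Without EN-TAM67 tumour 2 the difference was -0.38, and without EN-TAM67 tumour 1 it was -1.90. Without EN tumour 2 it was -0.86, and without EN tumour 1 it was -1.42. No p is given for these fits, which leave a single tumour in a group. The size rests on the pseudocount, at -2.27 with 1 and -0.52 with 64. Among fits on every array, the unadjusted p was not under 0.05 with a pseudocount of 1 or with tumour number as a block. With the dimmest 60% left out, the probe set was too dim to be tested.

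The other 4 Csn1s2a probe sets were too dim to be tested and did not follow one pattern. Probe set 1436170_a_at read 1.81 and 7.44 units in EN-TAM67 tumours, against 13.4 and 34.6 units in EN tumours (difference -0.92). Probe set 1436488_at read 9.93 and 8.68 units in EN-TAM67 tumours, against 28.9 and 13.2 units in EN tumours (-0.52). In these 2 the EN-TAM67 tumours were the lower ones, with all 8 values under the array medians. Probe set 1438694_at read 24.5 and 1.03 units in EN-TAM67 tumours, against 24.1 and 7.90 units in EN tumours (-0.24). Probe set 1420633_a_at read 0.850 and 21.3 units in EN-TAM67 tumours, against 13.0 and 0.0739 units in EN tumours (0.21). In both, the tumours of a group differed from each other more than the group means did.

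The genes whose log2 values came nearest to those of Csn1s2a 1455579_at over the 4 arrays were Gm12843, Omg, Ccl11, Htr2b and Itgb7. Their distances (Euclidean, after centring each gene on its mean, among 13317 genes) were 0.25 to 0.40. Each of these 5 had its lowest value in EN-TAM67 tumour 2, from 0.943 to 6.92 units. This follows from how they were chosen, since Csn1s2a 1455579_at was itself lowest there.

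Of the 3 genes of soluble milk proteins, Wap, Lalba and Ltf, none passed the test. Wap, whey acidic protein, is the most abundant whey protein of mouse milk. Its probe set read 152 and 154 units in EN-TAM67 tumours, against 141 and 103 units in EN tumours. The EN-TAM67 tumours were both higher and close to each other, while the EN tumours lay apart. Means were 153 ± 1.27 in EN-TAM67 and 122 ± 27.0 units in EN tumours (SD, n = 2 each). The difference of 0.31 ± 0.23 (SE, 95% confidence interval -0.18 to 0.80) did not pass (limma adjusted p = 0.714). Leaving out EN tumour 2 gave 0.11, and leaving out EN tumour 1 gave 0.51.

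Lalba encodes alpha-lactalbumin, which turns the galactosyltransferase B4galt1 into lactose synthase. Its probe set read 31.0 and 28.0 units in EN-TAM67 tumours, against 46.9 and 14.1 units in EN tumours. Both EN-TAM67 values lay between the EN values, and the difference was 0.064 ± 0.46 (SE, limma adjusted p = 0.983). Without EN tumour 2 the difference was -0.47, and without EN tumour 1 it was 0.60. B4galt1 itself read 395 and 464 units in EN-TAM67 tumours, against 427 and 415 units in EN tumours (difference 0.025).

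Ltf encodes lactoferrin, an iron-binding protein of milk that neutrophils also store in their granules. It read 49.3 and 44.5 units in EN-TAM67 tumours, against 56.1 and 43.1 units in EN tumours. The groups overlapped, all 4 values lay above the array medians, and the difference was -0.055 ± 0.27 (SE, limma adjusted p = 0.972). Beside it, 9 neutrophil markers summed to 493 to 613 units in EN-TAM67 and 607 to 769 units in EN tumours, with none of the 9 at 0, and their part in the Ltf signal was not tested. Of the 9 differences, 7 were negative and 2 positive. The sums include Lcn2, also a milk protein, at 94.4 and 140 units in EN-TAM67 tumours, against 265 and 164 units in EN tumours.

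None of the 3 fat globule genes passed the test. Mfge8 encodes a secreted glycoprotein of the globule surface that also bridges dying cells to macrophages. It read 667 and 777 units in EN-TAM67 tumours, against 745 and 946 units in EN tumours. The groups overlapped, since EN tumour 1 lay between the EN-TAM67 values, and all 4 arrays placed the probe set above 97.0% of probe sets. Means were 722 ± 77.7 in EN-TAM67 and 845 ± 143 units in EN tumours (SD, n = 2 each). The difference was -0.22 ± 0.20 (SE, 95% confidence interval -0.64 to 0.21, limma adjusted p = 0.777), and it was -0.048 without EN tumour 2 and -0.39 with EN tumour 1 left out. The macrophage markers, in which 9 of 11 were negative, summed to 9699 to 12198 units in EN-TAM67 and 15353 to 18166 units in EN tumours. None of the 11 was at 0, and their part in the Mfge8 signal was not tested. In a bulk tumour, fewer cells of a type and less RNA in each cell cannot be told apart.

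Xdh encodes xanthine oxidoreductase, a purine-degrading enzyme that binds butyrophilin at the cell surface during fat secretion. It read 179 and 164 units in EN-TAM67 tumours, against 205 and 181 units in EN tumours. The EN-TAM67 tumours were both lower, but the group difference was smaller than the log2 gap between the EN tumours. The difference was -0.15 ± 0.22 (SE, 95% confidence interval -0.62 to 0.31, limma adjusted p = 0.872).

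Btn1a1, which encodes butyrophilin, had 3 probe sets, all with positive differences and overlapping groups. Probe set 1451824_at read 32.9 and 65.6 units in EN-TAM67 tumours, against 36.9 and 14.7 units in EN tumours. It had the highest difference of the 18, 0.65 ± 0.40 (SE, 95% confidence interval -0.20 to 1.499), and did not pass (limma adjusted p = 0.649). It was 0.25 without EN tumour 2 and 1.04 with EN tumour 1 left out, and it passed the filter through the EN-TAM67 tumours (mean 49.2 units in EN-TAM67 and 25.8 units in EN tumours). Probe set 1419175_a_at read 53.9 and 56.7 units in EN-TAM67 tumours, against 82.4 and 22.9 units in EN tumours. There the EN tumours lay on both sides of the EN-TAM67 tumours, and the difference was 0.20 ± 0.36 (SE, limma adjusted p = 0.900). Probe set 1425754_a_at, too dim to be tested, read 10.9 and 36.8 units in EN-TAM67 tumours, against 8.38 and 16.2 units in EN tumours.

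**Figure D2:**
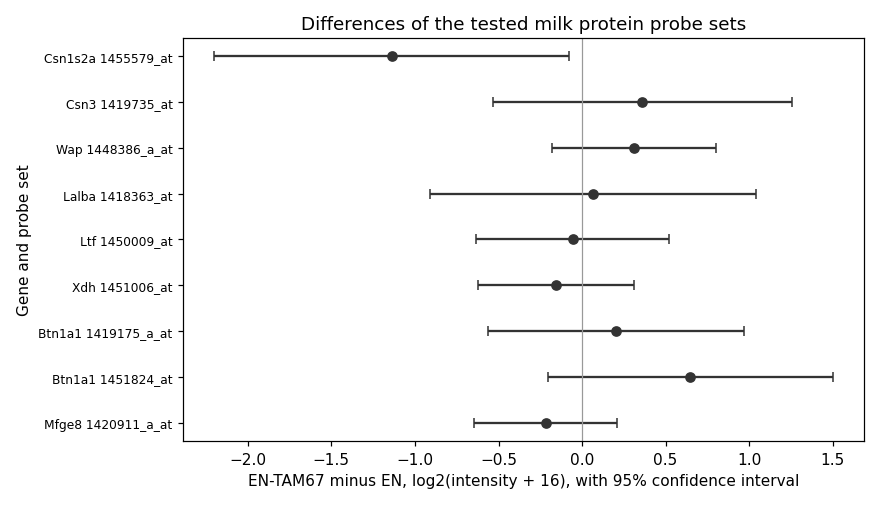
Differences (EN-TAM67 minus EN, log2 of intensity + 16) of the 9 tested milk protein probe sets, with limma's 95% confidence intervals as bars (2 tumours in each group). The interval of Csn1s2a 1455579_at (-2.20 to -0.079, not adjusted for the number of probe sets) is the only one of the 9 that leaves out 0. Among fits on every array, it does not do so with a pseudocount of 1 or with tumour number as a block. The intervals of Mfge8, Wap and Xdh are narrower than the others.

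Counts over the 18 probe sets were set beside the same counts over the array. Groups did not overlap in 6 of the 18 (2 with EN-TAM67 higher and 4 with EN-TAM67 lower), against 37.3% of all probe sets but controls (21.5% higher and 15.9% lower). Of the 9 tested, 4 did not overlap (Csn3 1419735_at and Wap higher, Csn1s2a 1455579_at and Xdh lower), against 39.8% of all probe sets tested. Csn3 1419735_at passed the filter through the EN-TAM67 tumours and Csn1s2a 1455579_at through the EN tumours, so this count is a description only. In 16 of the 18 the group difference was smaller than the larger gap between tumours of one group, as it was in 75.8% of all probe sets but controls. The exceptions were Csn3 1419735_at and Csn1s2a 1436170_a_at. The filter on dim probe sets stood at a mean of 27.2 units. Just inside it lay Csn3 1419735_at, at means of 33.8 units in EN-TAM67 and 22.8 units in EN tumours. Just outside it lay Csn1s1, at means of 19.8 units in EN-TAM67 and 25.7 units in EN tumours.

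Of 29 other lactation genes listed, 18 were tested: 1 rose, 0 fell, and the median difference was 0.022, against 0.020 over the 13325 genes tested by their brightest probe set, of which 7 rose and 27 fell (0.255% in all). In limma 5 of the 18 had an unadjusted p under 0.05, against 9.22% of all genes tested. Cd36, Lpl and Plin2 were higher in EN-TAM67 tumours, and Thrsp and Lcn2 lower. Leaving out single arrays put the lactation median between -0.030 (EN-TAM67 tumour 1 left out) and 0.096 (EN tumour 1 left out). The gene that rose was Cd36, a fatty acid transporter and a protein of the fat globule. It read 173 and 278 units in EN-TAM67 tumours, against 19.1 and 16.7 units in EN tumours, a difference of 2.80 ± 0.25 (SE, limma adjusted p = 2.9e-04). The groups were wide apart, and Cd36 passed the filter through the EN-TAM67 tumours (mean 225 units in EN-TAM67 and 17.9 units in EN tumours). The EN values lay below their array medians. The size therefore rests on the pseudocount, at 3.54 with 1 and 1.80 with 64, and the call was lost without the intensity trend. Cd36 is also made by adipocytes. The 8 adipocyte markers tested, all with positive differences (median 1.22), summed to 1897 and 6629 units in EN-TAM67 tumours, against 1094 and 751 units in EN tumours. With EN-TAM67 tumour 2 left out their median was 0.55, with EN-TAM67 tumour 1 left out 1.91, with no filter 0.62 and with a pseudocount of 64 it was 0.75. None of the 8 was at 0, and their part in the Cd36 rise was not tested. Of the 8, Cidec and Lipe passed the filter through the EN-TAM67 tumours, and their groups overlapped. Cidec had means of 49.2 units in EN-TAM67 and 19.9 units in EN tumours, and Lipe 37.7 and 23.4 units.

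Other lipid genes of the lactating gland had values on either side, and none passed. Plin2, the coat protein of lipid droplets, read 1462 and 1805 units in EN-TAM67 tumours, against 959 and 1180 units in EN tumours (difference 0.60 ± 0.19, limma adjusted p = 0.302). Lpl, lipoprotein lipase, read 137 and 556 units in EN-TAM67 tumours, against 90.6 and 60.3 units in EN tumours (1.71 ± 0.43, limma adjusted p = 0.154). For both, each EN-TAM67 tumour was above each EN tumour. Thrsp, a regulator of fatty acid synthesis, stood the other way, at 38.7 and 30.9 units in EN-TAM67 tumours, against 78.0 and 75.1 units in EN tumours (-0.87 ± 0.25, limma adjusted p = 0.261). Fasn, fatty acid synthase, read 260.1 and 524 units in EN-TAM67 tumours, against 181 and 335 units in EN tumours, and its groups overlapped. Fabp3, a fatty acid binding protein, was too dim to be tested (difference -0.42). These 5 were picked after their values were seen.

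Among secreted milk proteins outside the 10, readings were mixed. Csn1s2b, a second alpha-S2 type casein gene, read 2.96 units in EN-TAM67 tumour 1 and was listed at 0 in EN-TAM67 tumour 2, against 16.1 and 36.7 units in EN tumours. Glycam1, a mucin-like milk protein, read 0.0398 and 2.81 units in EN-TAM67 tumours, against 4.04 and 19.8 units in EN tumours. For both genes the EN-TAM67 tumours were the lower ones, but 7 of the 8 readings lay under 20 units and neither gene was bright enough to be tested. Wfdc18, a protein of the same domain family as Wap, read 83.9 and 80.9 units in EN-TAM67 tumours, against 104 and 90.03 units in EN tumours (difference -0.19, limma adjusted p = 0.830). Its 4 values lay above the array medians. In Cel, a milk lipase, and Muc15, a mucin of the fat globule, the EN-TAM67 tumours were the higher ones. Cel read 85.9 and 94.8 units in EN-TAM67 tumours, against 62.9 and 82.5 units in EN tumours (difference 0.27, limma adjusted p = 0.757). Muc15, too dim to be tested, read 24.2 and 25.9 units in EN-TAM67 tumours, against 1.61 and 15.5 units in EN tumours. These 5 were also picked after their values were seen.

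Of 24 regulators of milk genes listed (prolactin, STAT5 and glucocorticoid signalling), 20 were tested and 0 passed, with 8 positive and 12 negative and a median difference of -0.23. In limma 3 of the 20 had an unadjusted p under 0.05, against 9.22% of all genes tested. The median was -0.041 without EN-TAM67 tumour 2. Stat5a, the main STAT5 of the mammary gland, read 83.4 and 77.5 units in EN-TAM67 tumours, against 70.9 and 79.6 units in EN tumours (difference 0.081). Its relative Stat5b read 120 and 130 units in EN-TAM67 tumours, against 160 and 166 units in EN tumours (difference -0.35, limma adjusted p = 0.657). Stat5b was thus lower in both EN-TAM67 tumours and Stat5a overlapped, and both lay above the array medians in all 4 tumours.

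The values farthest from 0 among the 20 tested regulators were those of Pgr and Socs3. Socs3, a feedback inhibitor of cytokine receptors, read 313 and 299 units in EN-TAM67 tumours, against 470 and 431 units in EN tumours (difference -0.54 ± 0.21, limma adjusted p = 0.434). Pgr, the progesterone receptor, read 57.9 and 54.8 units in EN-TAM67 tumours, against 23.2 and 45.1 units in EN tumours (0.56 ± 0.31, limma adjusted p = 0.5997). Neither passed, although the groups did not overlap in either gene. Cish, a STAT5-induced feedback gene, read 117 and 112 units in EN-TAM67 tumours, against 146 and 146 units in EN tumours (difference -0.31, limma adjusted p = 0.694).

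Elf5, the transcription factor of the secretory alveolar lineage, was too dim to be tested. It read 3.46 and 28.5 units in EN-TAM67 tumours, against 16.3 and 37.5 units in EN tumours. Its groups overlapped, and 3 of its 4 values were under the array medians. Prlr, the prolactin receptor, was not analysed here. Stat5a, Stat5b, Cish and Elf5 were named for their roles after their values were seen.

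Epithelial markers varied in brightness. Krt8, a luminal keratin, read 1596 and 1470 units in EN-TAM67 tumours, against 2048 and 2017 units in EN tumours (difference -0.40, limma adjusted p = 0.455). The epithelial adhesion gene Epcam read 226 and 248 units in EN-TAM67 tumours, against 307 and 246 units in EN tumours. In limma 0 of 9 luminal markers (median -0.20) and 0 of 5 basal and myoepithelial markers (median -0.28) passed. Each list had 1 gene at an unadjusted p under 0.05 in limma, against 9.22% of all genes tested. The luminal median was -0.054 with EN tumour 1 and -0.056 with EN tumour 2 left out, and the basal median -0.46 without EN tumour 1 and -0.18 without EN tumour 2. The tested luminal markers with differences farthest from 0 were Kit (-0.54) and Cldn7 (-0.47), and the basal ones were Krt14 (0.67) and Krt5 (-0.63). Kit read 46.2 and 12.5 units in EN-TAM67 tumours, against 36.2 and 55.4 units in EN tumours. Krt14 read 157 and 425 units in EN-TAM67 tumours, against 167 and 149 units in EN tumours. The groups thus overlapped in Kit and Krt14, but not in Cldn7 and Krt5. Of the 9 luminal markers 5 were negative and 4 positive (Cldn4 0.46, Krt7 0.32, Cldn3 0.20 and Cdh1 0.15). Of the 5 basal and myoepithelial markers 4 were negative and 1 was positive. Krt8 and Epcam lay above the array medians in all 4 tumours, Cldn7, Krt7 and Kit lay under them in at least 1, and the luminal genes Krt19 and Foxa1 were too dim to be tested. Krt8 and Epcam were picked after their values were seen.

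Among markers of other cells, 1 of 8 adipocyte genes rose, Car3, a carbonic anhydrase (3.36 ± 0.41, limma adjusted p = 0.0049). This call was lost without the intensity trend, with a robust variance and with tumour number as a block. Of the 8, 4 (Car3, Fabp4, Retn and Adipoq) had an unadjusted p under 0.05 in limma. In the other 4 lists 0 genes passed in limma, while an unadjusted p under 0.05 was reached by 5 macrophage, 1 neutrophil, 6 fibroblast and 2 endothelial markers, against 9.22% of all genes tested. The medians were -0.46 for 11 macrophage markers, -0.21 for 9 neutrophil, -0.60 for 10 fibroblast and -0.36 for 6 endothelial markers. Single arrays moved these: leaving one out gave -0.68 to -0.21 for macrophage, -0.53 to 0.067 for neutrophil (positive without EN tumour 1), -0.76 to -0.31 for fibroblast and -0.47 to -0.24 for endothelial markers. The macrophage extremes came without EN-TAM67 tumours 1 and 2, the neutrophil low without EN-TAM67 tumour 1, and the fibroblast and endothelial medians nearest 0 without EN tumour 2. Among the genes tested, values farthest from 0 were Lyz2 (-0.88) and C1qb (-0.82) for macrophages, and Lcn2 (-0.78), itself also a milk protein, and Mmp9 (-0.50) for neutrophils. They were Lum (-1.07) and Thy1 (-0.96) for fibroblasts, and Cdh5 (-0.74) and Eng (-0.70) for endothelial cells.

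**Figure D3:**
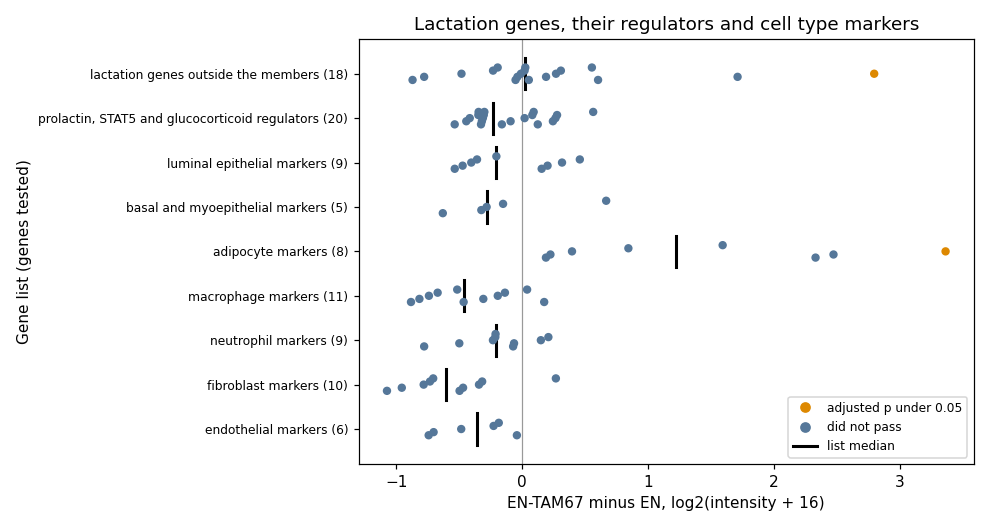
Differences (EN-TAM67 minus EN, log2 of intensity + 16) of genes on the lactation, regulator and cell type marker lists, 1 point for each gene tested, with black bars at list medians and orange points for genes with an adjusted p under 0.05. Cd36 (2.80) and Car3 (3.36) are the only orange points, and the medians of lactation genes and regulators (0.022 and -0.23) lie nearer 0 than that of adipocyte markers (1.22, or 0.55 without EN-TAM67 tumour 2).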

How the data were processed

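The values the authors deposited are linear intensities, 45101 probe sets by 4 arrays. Their probe summary, background correction and scaling are not given in the sources used here. RNA was extracted with Trizol and cleaned on columns, and biotin-labelled cRNA was hybridised, per the labels' protocols. The labels number the tumours but do not say that those of a group came from separate animals. The p-values then measure only the spread between these samples, possibly technical. The number of arrays limits the precision.

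Names came from the platform annotation table, and 34741 of 34945 with 1 symbol were found by Entrez ID in RefSeq (GRCm38.p6), which changed 0 symbols (932 had several symbols and 9160 none). Control probe sets (64) and the dimmest 40% by mean intensity were left out. Each of the 27022 probe sets left was tested on log2(intensity + 16) with limma 3.58.1 under R 4.3.3 (eBayes after lmFit, variance trend on intensity, two-sided tests, Benjamini-Hochberg adjusted p under 0.05). List genes were read from their brightest probe set. On simulated data for the same 27022 probe sets, the fit recovered 74% of 100 probe sets changed 2-fold and 100% of 100 changed 4-fold, all drawn from the brighter ones. It called 21 unchanged probe sets.

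The genes, lists and tests were chosen with earlier results of these data known. All probe sets of the 10 genes are named, and from each list up to 4 genes that passed or the 2 farthest from 0. Other list genes in the text, among them Krt8, Epcam and B4galt1, were picked outside this rule after their values were seen. For the milk protein probe set that varied most, the 5 genes nearest in pattern are named. Equal tumour numbers do not tie tumours together in the labels. Alternatives changed the filter, normalization, pseudocount, probe set rule, variance model, block, threshold and arrays used. Plots were drawn with matplotlib 3.10.9.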

Additional observations from a re-analysis of the deposited data

How the results depend on the processing

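The count of 0 milk protein probe sets past the threshold held in limma under every other setting fitted on every array. There the lowest adjusted p was 0.457 in limma, with 0 to 1 unadjusted p under 0.05. Refits gave 135 differences for the 9 probe sets tested and 135 for the 9 dim ones, of which 5 and 10 changed sign. Of the tested ones, Lalba was at -0.035 with quantile normalization, -0.034 with median centring and at -0.47 to 0.60 with single arrays left out, Btn1a1 1419175_a_at at -0.47 to 0.88 and Ltf at -0.20 to 0.088. Of the values without a test, 5 moved by more than the spread between tumours. They were of dim Csn1s2a or Csn2 probe sets, with a pseudocount of 1 or 64. Tested values were not held against this spread. Among them, Csn1s2a 1455579_at went from -1.14 to -2.27 with a pseudocount of 1 and to -0.52 with 64. Csn3 1419735_at went from 0.36 to 0.55 with 1 and to 0.17 with 64. Leaving out an array put the median over the 18 at -0.12 (EN tumour 2 left out) to 0.18 (EN tumour 1 left out). The 61 probe sets past the threshold became 151 with no filter, 38 with median centring, 147 at an adjusted p under 0.10, 0 without the intensity trend (2129 at an unadjusted p under 0.05 in limma), and 37, 140 and 273 when EN-TAM67 tumour 2, EN tumour 1 or EN tumour 2 was left out. With tumour number as a replicate block 4 passed (Cd36, Eln, Foxp2 and Iigp1), and 0 milk protein probe sets did; deviations of equal numbers correlated at -0.038. Passing lactation genes numbered 2 with no filter (Cd36 and Lpl), 0 without the trend and 1 to 2 with arrays left out. Adipocyte markers numbered 4 with no filter, 4 with the brightest probe set of each gene, 2 with a pseudocount of 1, 2 at 0.10, 0 without the trend, with a robust variance or with the block, and 1 to 4 with arrays left out. Fibroblast markers numbered 1 with no filter (Lum), 2 at 0.10 and 0 to 4 with arrays left out, and macrophage markers 2 at 0.10 and 0 to 4. The causes were not tested. A filter on mean log2 values, chosen after seeing the data, gave 58. Fits on 3 arrays assume that the single tumour left in a group varies as the other group does. No detection call was used, so low readings cannot be told from no expression.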
